A study of Mus musculus with 6 samples.

Results

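The genes described here are 8 chemokines of the CXC family (Cxcl1, Cxcl2, Cxcl9, Cxcl10, Cxcl12, Cxcl13, Cxcl14 and Cxcl16) and the receptor Cxcr4, measured in mouse liver with and without induced lipophagy, the autophagy of lipid droplets. They were taken by gene symbol, as a family chosen with earlier results of these data known, and are 9 of the 24346 genes in the table of expression values. A mean of at least 0.5 FPKM (sequenced fragments scaled to transcript length and to sequencing depth) over the 6 livers was required for testing, and 8 of the 9 were among the 11493 genes that passed. Cxcl13 was the member below that level.

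CXC chemokines are small proteins, mostly secreted, that bind receptors coupled to G proteins and direct the movement of leukocytes. They fall into classes by what induces them and whom they attract. Members with the amino acids glutamate, leucine and arginine before the first cysteines draw neutrophils through Cxcr2, the interferon-inducible members draw activated T and NK cells through Cxcr3, and the homeostatic members are made continuously by stroma and position resident cells. In steatohepatitis they are made by injured hepatocytes, macrophages, sinusoidal endothelium and stellate cells.

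Livers came from male C57BL/6 mice (C57BL/6J in the study's methods) that were 8 weeks old when they began CDAHFD, a high-fat diet of defined amino acids without choline that models nonalcoholic steatohepatitis, for 6 weeks. Per the study's methods, each mouse received 1 intravenous injection of AAV8 under the thyroxine-binding globulin (TBG) promoter, which is active in hepatocytes, then returned to normal chow and was analysed 2 weeks later. The 3 lipophagy livers carried LDTS-eLIR, a lipid-droplet-targeting part of perilipin 1 joined to an engineered LC3-interacting region. The 3 control livers carried LDTS-LIR mut, the same targeting part with a mutated region that does not recruit autophagosomes. Both groups therefore shared the diet, the virus and the targeting part, which is itself lipogenic, and no liver without vector or diet was compared. Nothing in the labels pairs a control mouse with a lipophagy mouse, and the construct in each liver was not checked because both contain mouse perilipin 1 sequence.

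Depth was estimated from the steps between low FPKM values at 2.36e+07 to 3.38e+07 fragments in control and 2.27e+07 to 2.46e+07 fragments in lipophagy livers. The 11 hepatocyte markers were abundant in every liver, summing to between 76900 and 84500 FPKM in control and between 92400 and 119000 FPKM in lipophagy livers. Summed FPKM over all genes was 622696, 657300 and 681138 in control and 782392, 734436 and 709993 in lipophagy livers, higher in each of the latter. The values reported below were not rescaled to equal sums unless quantile normalization is named. The livers resembled each other closely (Spearman 0.980 to 0.991 across genes) and no pair held identical values. Of the 11493 tested genes, 3 (0.0261%) had an adjusted p below 0.05 in limma with Benjamini-Hochberg adjustment, so the comparison below rests mainly on sizes, intervals and the separation of livers.

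None of the 8 tested members had an adjusted p below 0.05 in limma. Unadjusted p was below 0.05 for 4 of them (Cxcl1, Cxcl10, Cxcl14 and Cxcl16), all with lower means in lipophagy livers, where 7.97% of all tested genes had such a p and a lower mean and 11.5% had one and a higher mean. For 3 of them (Cxcl10, Cxcl14 and Cxcl16) every lipophagy liver lay below every control liver, against 10.8% of all tested genes, and for none did every lipophagy liver lie above, against 15.4%. The log2 change of the 8 members, lipophagy minus control on log2(FPKM + 1), had a median of -0.20, against 0.020 over all tested genes. It was negative for 7 members and positive for Cxcl9, where 5234 of the 11493 tested genes were negative. Cxcl9 was negative too without lipophagy liver 3, and Cxcl2 was positive with quantile normalization and with liver quality weights. Without control liver 2, control liver 3, lipophagy liver 1 or lipophagy liver 2, unadjusted p was below 0.05 for 2 members (Cxcl10 and Cxcl16), where 5.2% to 7.33% of all tested genes had such a p and a lower mean. Without lipophagy liver 3 the livers of 5 members did not overlap, all lower, where 18.6% of all tested genes were separated that way. In bulk liver, fewer cells of a type and less RNA per cell cannot be told apart.

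**Figure D1:**
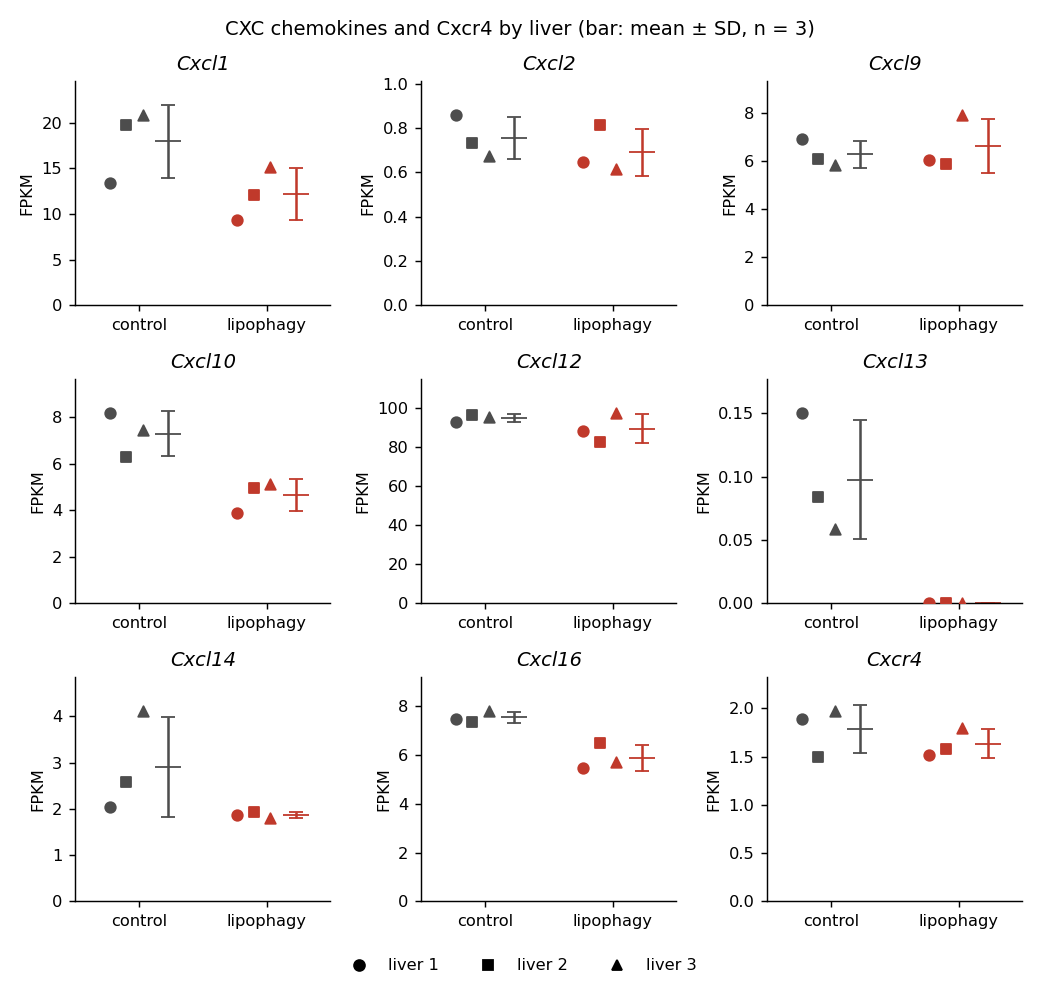
FPKM (vertical axes, each from 0) of the 9 genes in the 3 control (grey) and 3 lipophagy (red) livers, with symbols for liver number within a group and mean ± SD beside them. The lipophagy points of Cxcl10, Cxcl14 and Cxcl16 all sit below the control points, whereas those of Cxcl2, Cxcl9, Cxcl12 and Cxcr4 mix with them, and Cxcl13 was listed at 0 in the lipophagy livers.

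**Figure D2:**
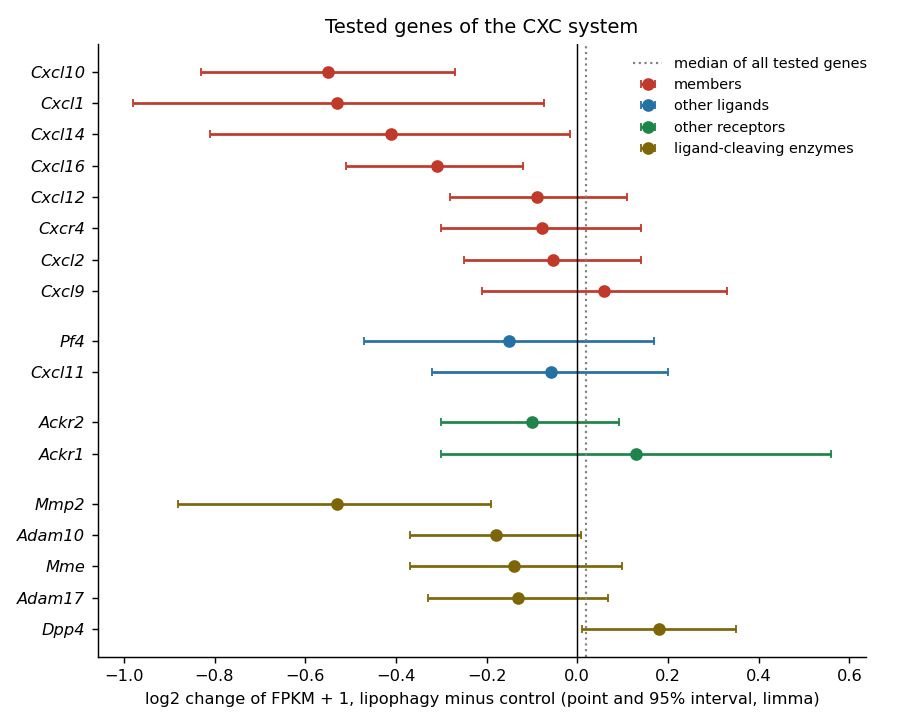
Log2 change of FPKM + 1 (horizontal axis, lipophagy minus control) with its 95% interval from limma for the tested members, the other CXC ligands and receptors, and the enzymes that cleave the ligands. The intervals of Cxcl10, Cxcl1, Cxcl14, Cxcl16 and Mmp2 lie below 0, that of Dpp4 lies above 0, and the others include 0.

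Cxcl1 and Cxcl2 are the neutrophil attractants that take the place of human IL-8 in the mouse, and NF-kB is a main inducer of both. They lie next to each other on chromosome 5 of mm10 (GRCm38), Cxcl1 at chr5:90891245-90893121 and Cxcl2 at chr5:90903899-90905938, both on the plus strand. Cxcl1 measured 13.4, 19.7 and 20.8 FPKM in control livers 1 to 3 and 9.37, 12.1 and 15.1 FPKM in lipophagy livers 1 to 3. The groups overlapped, because the highest lipophagy liver exceeded the lowest control liver. The means were 18 ± 3.96 and 12.2 ± 2.87 FPKM (SD, n = 3 each), a ratio of control to lipophagy of 1.48. The log2 change was -0.53 (SE 0.20, 95% interval -0.98 to -0.073), with an unadjusted p of 0.0281 and an adjusted p of 0.218 in limma.

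Cxcl2 was far less abundant than its neighbour, at 0.858, 0.733 and 0.673 FPKM in control and 0.645, 0.812 and 0.617 FPKM in lipophagy livers. The groups overlapped, with the second lipophagy liver above control livers 2 and 3. Without lipophagy liver 2 the groups did not overlap, at a log2 change of -0.10. With all livers the log2 change of Cxcl2 was -0.053 (SE 0.084, 95% interval -0.25 to 0.14; adjusted p = 0.746, limma). The FPKM values resolve into whole fragments, 21, 16 and 21 in control and 14, 17 and 14 in lipophagy livers, at which counting alone gives an SD of 21.8% to 26.7% of a value. A ratio of means as large as that of Cxcl1 would give Cxcl2 a log2 change of -0.22, which lies inside this interval. Within each liver, the log2 ratio of Cxcl1 to Cxcl2 averaged 3.41 ± 0.40 in control and 2.94 ± 0.34 in lipophagy livers (SD, n = 3 each), a difference of -0.47 with an exact two-sided permutation p of 0.2 (adjusted 0.4 over 4 pairs).

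The promoters of both genes are shown because they carry the same run of NF-kB letters. Each is the 250 bases before the RefSeq start (GRCm38.p6), written 5′ to 3′ on the strand of the gene. Capitals mark matches on either strand to the kB letters GGGNNNTTC, the interferon-gamma-activated letters TTCNNNGAA or the interferon-response letters GAAANNGAA. The Cxcl1 window is chr5:90890995-90891244 and the Cxcl2 window is chr5:90903649-90903898, both on the plus strand.
Cxcl1: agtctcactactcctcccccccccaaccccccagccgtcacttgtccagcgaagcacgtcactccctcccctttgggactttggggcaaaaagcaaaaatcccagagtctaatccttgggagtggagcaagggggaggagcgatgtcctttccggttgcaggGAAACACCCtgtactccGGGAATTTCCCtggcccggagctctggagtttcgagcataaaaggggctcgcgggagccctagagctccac
Cxcl2: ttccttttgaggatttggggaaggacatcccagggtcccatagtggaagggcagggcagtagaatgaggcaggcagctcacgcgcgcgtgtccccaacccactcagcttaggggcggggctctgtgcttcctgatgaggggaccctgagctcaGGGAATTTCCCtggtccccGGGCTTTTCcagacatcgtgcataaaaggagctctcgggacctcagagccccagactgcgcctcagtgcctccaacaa
Both held 3 kB matches, where 11.8% of 32851 mouse promoter windows held any, and all 3 were followed by the further C of the longer kB consensus, which 4.65% of windows held. In each gene 2 of the 3 overlapped, since GGGAATTTC on the strand of the gene shares bases with GAATTTCCC, a match on the opposite strand. That stretch ended 61 bases before the start in Cxcl1 and 87 bases before it in Cxcl2. Neither window matched the interferon letters, which occurred in 7.02% of windows for TTCNNNGAA and 7.13% for GAAANNGAA. A match of letters is a description of the sequence and not evidence of binding in these livers.

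The other neutrophil-attracting ligands were scarce. Cxcl5, which also signals through Cxcr2, measured 0.449, 0.477 and 0.275 FPKM in control and 0.253, 0.0875 and 0.242 FPKM in lipophagy livers. No lipophagy liver reached a control liver, and the values correspond to 49 fragments in all control and 21 in all lipophagy livers (exact two-sided permutation p = 0.1, the smallest that 3 livers against 3 can give). Cxcl3 was seen as 1, 2 and 1 fragments in control livers and was listed at 0 in the lipophagy livers, where 3 fragments per liver would be 0.141 to 0.152 FPKM, above each control value. Ppbp, the platelet basic protein, gave 17 control and 18 lipophagy fragments. Cxcl15 was listed at 0 in every liver.

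Their receptor Cxcr2, carried mainly by neutrophils, gave 10, 13 and 15 fragments in control and 9, 3 and 5 in lipophagy livers. The FPKM values of the groups overlapped, at 0.156 ± 0.0301 and 0.0816 ± 0.0439 (SD, n = 3 each; exact two-sided permutation p = 0.2). Cxcr1 was listed at 0 in every liver. Of 11 neutrophil markers in the table, 4 were tested, all with lower means in lipophagy livers. Unadjusted p was below 0.05 for 3 of them, S100a9 (log2 change -0.60), Csf3r (-0.28) and Lcn2 (-0.79), against 7.97% of all tested genes. These 3 of the 4 did not overlap between groups, against 10.8% of all tested genes, and S100a8 overlapped. Csf3r separated narrowly, with its lowest control and highest lipophagy liver both at 1.09 FPKM to the digits given. The summed level of the list was 152, 202 and 237 FPKM in control and 95.2, 111 and 142 FPKM in lipophagy livers. Most of it was Lcn2, a gene that hepatocytes also express, at 78.2 to 210 FPKM, whereas the granule genes Elane, Mpo, Ngp, Camp and Ltf were at 0 to 0.771 FPKM in every liver. The part of neutrophils in the Cxcl1 values was not tested.

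**Figure D3:**
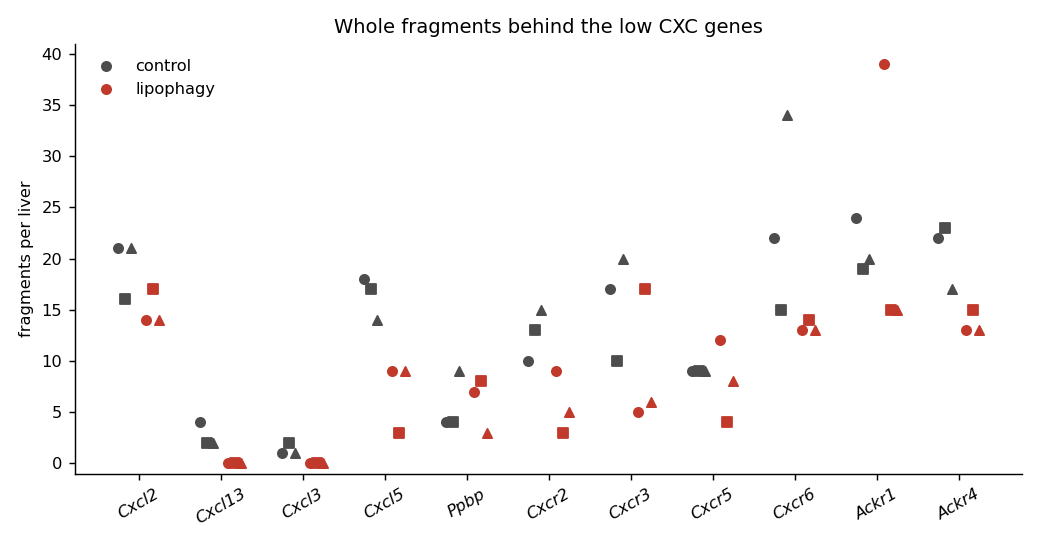
Whole sequenced fragments per liver (vertical axis, not scaled for depth) recovered from the FPKM steps of 11 CXC ligands and receptors with few reads, control in grey and lipophagy in red. Cxcl5, Cxcr6, Cxcr2 and Ackr4 separate the groups on this unscaled axis, although Cxcr2 and Ackr4 overlap in FPKM, Cxcl13 and Cxcl3 rest on at most 4 fragments in a liver, and Ackr1 has 1 lipophagy liver at 39 fragments.

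Cxcl9, Cxcl10 and Cxcl11 are the interferon-inducible ligands of Cxcr3, the receptor of activated T and NK cells. Cxcl9 depends chiefly on interferon-gamma, whereas Cxcl10 is also induced by type I interferon and NF-kB. They lie together on the minus strand of chromosome 5, Cxcl9 at chr5:92321331-92328079, Cxcl10 at chr5:92346638-92348889 and Cxcl11 at chr5:92359544-92363296, where RefSeq calls Cxcl11 a transcribed pseudogene in the mouse reference strain.

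Cxcl10 and Cxcl1 had the lowest log2 changes of the 8 tested members. The order of Cxcl10, Cxcl1 and Cxcl14 varied with the processing and with the livers left out. Cxcl10 measured 8.18, 6.29 and 7.45 FPKM in control and 3.89, 4.97 and 5.15 FPKM in lipophagy livers. Every lipophagy liver lay below every control liver. The means were 7.31 ± 0.952 and 4.67 ± 0.680 FPKM (SD, n = 3 each), a ratio of control to lipophagy of 1.57. The log2 change was -0.55 (SE 0.12, 95% interval -0.83 to -0.27), with an unadjusted p of 0.00188, which ranked 159 among the 11493 genes, and an adjusted p of 0.134 in limma. The exact two-sided permutation p was 0.1. Exons of Cxcl10 overlap those of Art3 on the opposite strand, and whether fragments were assigned by strand is not given in the sources used here. Art3 itself was at 0.898 ± 0.223 and 0.935 ± 0.337 FPKM (SD, n = 3 each), with a log2 change of 0.020.

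Cxcl9, its neighbour, measured 6.93, 6.11 and 5.83 FPKM in control and 6.06, 5.90 and 7.92 FPKM in lipophagy livers. The groups overlapped, and the highest value of all was a lipophagy liver. The log2 change was 0.058 (SE 0.12, 95% interval -0.21 to 0.33; adjusted p = 0.807, limma). Cxcl9 was behind 367 to 539 estimated fragments in a liver and Cxcl10 behind 86.6 to 238, so Cxcl9 was the more deeply measured gene.

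The balance of these 2 ligands of 1 receptor separated the groups. The log2 ratio of Cxcl9 to Cxcl10 (FPKM + 1) within a liver was -0.21, -0.036 and -0.31 in control and 0.53, 0.21 and 0.54 in lipophagy livers. Cxcl10 was thus higher than Cxcl9 in each control liver and lower in each lipophagy liver. The difference of the means was 0.61, with an exact two-sided permutation p of 0.1, the smallest possible, and 0.4 after adjustment over 4 pairs. Cxcl11 overlapped between groups, at 0.863 ± 0.202 and 0.788 ± 0.179 FPKM (SD, n = 3 each; log2 change -0.058, 95% interval -0.32 to 0.20, adjusted p = 0.795, limma). Its exons overlap Gm2673 on the opposite strand.

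The windows before Cxcl9 and Cxcl10 are shown because the genes are neighbours of which Cxcl10 separated the groups and Cxcl9 did not. The letters searched for are those used for Cxcl1 and Cxcl2. The Cxcl9 window is chr5:92328080-92328329 and the Cxcl10 window chr5:92348890-92349139, both on the minus strand and written 5′ to 3′ on it.
Cxcl9: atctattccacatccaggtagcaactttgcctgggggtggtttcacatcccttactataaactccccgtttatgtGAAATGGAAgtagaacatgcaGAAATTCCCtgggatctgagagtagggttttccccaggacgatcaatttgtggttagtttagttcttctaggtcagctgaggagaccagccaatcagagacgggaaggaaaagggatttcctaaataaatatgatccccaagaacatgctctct
Cxcl10: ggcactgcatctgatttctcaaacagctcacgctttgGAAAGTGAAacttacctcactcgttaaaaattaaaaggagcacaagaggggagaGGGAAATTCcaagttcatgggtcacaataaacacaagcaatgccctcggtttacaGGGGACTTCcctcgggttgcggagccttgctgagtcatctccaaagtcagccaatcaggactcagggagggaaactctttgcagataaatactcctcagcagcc
Cxcl10 held 2 kB matches, GGGAAATTC and GGGGACTTC, and 1 interferon-response match, GAAAGTGAA, that began 213 bases before the start. Cxcl9 held 1 kB match on the opposite strand, GAAATTCCC, and 1 interferon-response match, GAAATGGAA. With the further C of the longer kB consensus, or a further A after the interferon-response letters (2.98% of windows), the matches of Cxcl10 remained and those of Cxcl9 did not, which says only that these letters are not in its window. Cxcl14 held 1 stretch, TTCTGAGAA, that matches TTCNNNGAA on both strands, and 1 GAAANNGAA match, Cxcr4 held 1 kB match, and Cxcl12 and Cxcl13 held none. No entry was found for Cxcl16.

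The receptor Cxcr3 rested on few fragments, 17, 10 and 20 in control and 5, 17 and 6 in lipophagy livers, and its FPKM overlapped between groups (exact two-sided permutation p = 0.4). Markers of T and NK cells were also low. Of the 12 genes 3 were tested, with a median log2 change of 0.0018, and the summed level was 5.49 to 8.29 FPKM in control and 5.31 to 6.67 FPKM in lipophagy livers. Nkg7, a cytotoxic granule gene, was the one with an unadjusted p below 0.05 and a lower mean, against 7.97% of all tested genes (log2 change -0.26, adjusted p = 0.254, limma). Ifng, looked at after its values were seen, was above 0 in 1 control and 1 lipophagy liver, at 0.108 and 0.155 FPKM, and was listed at 0 in the other livers. The part of these cells in the Cxcl10 values was not tested.

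Cxcl12, Cxcl13 and Cxcl14 are homeostatic ligands. Cxcl12, which retains hematopoietic cells and lymphocytes through Cxcr4, lies at chr6:117168535-117181368 on the plus strand. It measured 92.7, 96.3 and 95.5 FPKM in control and 88.0, 82.7 and 97.3 FPKM in lipophagy livers. The groups overlapped, with the third lipophagy liver above every control liver and the other two below them all. The log2 change was -0.088 (SE 0.085, 95% interval -0.28 to 0.11; adjusted p = 0.579, limma). Under quantile normalization it was -0.24 (unadjusted p = 0.0236, limma) without overlap, without lipophagy liver 3 it was -0.15 without overlap, and without lipophagy liver 2 it was -0.034.

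Cxcl12 was the most abundant of the 15 CXC ligands in the table in each of the 6 livers on the per-length scale. It made up 65.5%, 65.4% and 63.8% of summed ligand FPKM in control and 70.8%, 68.3% and 69.1% in lipophagy livers, so its share was higher in every lipophagy liver (exact two-sided permutation p = 0.1). Summed ligand FPKM without Cxcl12 was 48.9, 51.0 and 54.1 in control and 36.2, 38.4 and 43.4 in lipophagy livers. That sum also separated the groups (exact two-sided permutation p = 0.1), and most of it came from Cxcl1, Cxcl9, Cxcl10 and Cxcl16.

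Cxcl13, the B cell attractant that binds Cxcr5, lies at chr5:95956939-95961068 on the plus strand and was near the limit of detection. It was at 0.150, 0.0843 and 0.0589 FPKM in control livers, or 4, 2 and 2 fragments by its annotated length (the FPKM steps alone fix only their ratio), and was listed at 0 in the lipophagy livers. With 3 fragments as the limit that a count of 0 allows, a lipophagy liver could have held up to 0.122 to 0.132 FPKM, more than control livers 2 and 3 had. A single lipophagy liver at 0 therefore does not set it apart from those control livers. Over the groups there were 8 control fragments in an estimated 8.39e+07 and 0 lipophagy fragments in 7.09e+07, and the livers did not overlap (exact two-sided permutation p = 0.1). Fitted without the filter on low values, where the lipophagy livers at 0 have no spread of their own, Cxcl13 had a log2 change of -0.13, an unadjusted p of 0.00452 and an adjusted p of 0.196 in limma. No fold is given. Cxcr5 gave 9, 9 and 9 fragments in control and 12, 4 and 8 in lipophagy livers. The 7 B cell markers in the table summed to 3.15 to 4.92 FPKM in control and 2.72 to 4.25 FPKM in lipophagy livers.

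Cxcl14, a chemokine of epithelium and stroma, lies at chr13:56288643-56296811 on the minus strand. It measured 2.03, 2.59 and 4.11 FPKM in control and 1.87, 1.93 and 1.81 FPKM in lipophagy livers. The groups did not overlap, but the nearest livers were close and the third control liver stood well above the other two. The means were 2.91 ± 1.08 and 1.87 ± 0.0619 FPKM (SD, n = 3 each), with a log2 change of -0.41 (SE 0.17, 95% interval -0.81 to -0.017), an unadjusted p of 0.0430 and an adjusted p of 0.247 in limma. Without control liver 3 the log2 change was -0.20 (unadjusted p = 0.1, limma), so the size of the difference rested on that liver. The log2 ratio of Cxcl10 to Cxcl14 within a liver differed by -0.14 between groups (exact two-sided permutation p = 0.9). That difference was 0.10 without control liver 1 and -0.33 without control liver 3.

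Cxcl16 differs from the other ligands in that it is made as a transmembrane protein, which also takes up oxidized lipoprotein and phosphatidylserine, and is shed by Adam10 and Adam17 to attract Cxcr6-bearing T and NKT cells. It lies at chr11:70454389-70459984 on the minus strand. It measured 7.45, 7.36 and 7.79 FPKM in control and 5.45, 6.49 and 5.70 FPKM in lipophagy livers. Every lipophagy liver lay below every control liver, and the control livers were close together. The means were 7.53 ± 0.224 and 5.88 ± 0.541 FPKM (SD, n = 3 each), a ratio of control to lipophagy of 1.28. The log2 change was -0.31 (SE 0.084, 95% interval -0.51 to -0.12), with an unadjusted p of 0.00580 and an adjusted p of 0.151 in limma. Exons of Cxcl16 overlap those of Zmynd15 on the opposite strand, which was at 1.24 ± 0.109 and 1.04 ± 0.0952 FPKM (SD, n = 3 each; log2 change -0.14), also without overlap between groups.

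The receptor of Cxcl16 separated the groups as well. Cxcr6 was at 0.473, 0.363 and 0.574 FPKM in control and 0.315, 0.352 and 0.302 FPKM in lipophagy livers, or 71 and 40 fragments in all. The nearest livers, the second of each group, were 1 fragment apart, and the exact two-sided permutation p was 0.1. Of the shedding enzymes, Adam10 was at 6.10 ± 0.193 and 5.28 ± 0.401 FPKM (SD, n = 3 each) without overlap (log2 change -0.18, unadjusted p = 0.0576, adjusted p = 0.270, limma). Adam17 overlapped (log2 change -0.13, adjusted p = 0.416, limma).

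Cxcr4, the receptor of Cxcl12 and the receptor among the 9 genes, lies at chr1:128588199-128592299 on the minus strand. It measured 1.89, 1.5 and 1.97 FPKM in control and 1.52, 1.58 and 1.80 FPKM in lipophagy livers. The groups overlapped, since the lowest value of all was a control liver. The log2 change was -0.077 (SE 0.095, 95% interval -0.30 to 0.14; adjusted p = 0.670, limma). Without control liver 2 it was -0.15 without overlap, and without control liver 3 it was -0.03. The log2 ratio of Cxcl12 to Cxcr4 within a liver was 5.11 ± 0.15 in control and 5.10 ± 0.068 in lipophagy livers (SD, n = 3 each; exact two-sided permutation p = 0.9). Ackr3, which binds and removes Cxcl12, was at 0.437 ± 0.121 and 0.336 ± 0.0511 FPKM (SD, n = 3 each) and overlapped.

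Of the enzymes that cut the ligands, Dpp4, which clips the first residues of Cxcl9, Cxcl10 and Cxcl12, was at 19.3, 18.3 and 17.9 FPKM in control and 21.5, 20.3 and 21.4 FPKM in lipophagy livers. Every lipophagy liver lay above every control liver (log2 change 0.18, SE 0.073, unadjusted p = 0.0399, adjusted p = 0.243, limma). Mmp2, a matrix protease that inactivates Cxcl12, went the other way, at 2.79, 3.87 and 4.35 FPKM in control and 2.46, 2.45 and 1.72 FPKM in lipophagy livers. Its groups did not overlap either (log2 change -0.53, SE 0.15, unadjusted p = 0.00728, adjusted p = 0.157, limma). Mme overlapped (log2 change -0.14), and Mmp9 and Ctsg were under 0.5 FPKM on average. Of the remaining ligands and scavenging receptors, Pf4 (log2 change -0.15), Ackr1 (0.13) and Ackr2 (-0.10) overlapped, as did Ackr4, and Cxcl17 was seen as 1 fragment in 1 lipophagy liver.

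In order of level per transcript length, the control means ran Cxcl12, Cxcl1, Cxcl16, Cxcl10, Cxcl9, Cxcl14, Cxcr4, Cxcl2 and Cxcl13. The control livers of Cxcl10 overlapped those of both Cxcl16 and Cxcl9, and no other neighbours in that order overlapped. Within each control liver Cxcl10 was above Cxcl9, whereas against Cxcl16 its place varied. In lipophagy livers Cxcl10 lay below Cxcl9 and Cxcl16 without overlap with either, while Cxcl9 and Cxcl16, which did not overlap in control, overlapped there. Within the 6 livers Cxcl10 and Cxcl16 had a Pearson r of log2(FPKM + 1) of 0.91, and Cxcl9 and Cxcl10 had an r of 0.05. These are descriptions over 6 livers that share the group difference. The tested gene most like each member was Ncf1 for Cxcl1 (r = 0.994), Trim37 for Cxcl2 (0.995), C1s1 for Cxcl9 (0.995), Dixdc1 for Cxcl10 (0.998), Gm7694 for Cxcl12 (0.979), Oas1g for Cxcl14 (0.998), 2810013P06Rik for Cxcl16 (0.996) and Jade1 for Cxcr4 (0.994), each the highest of 11493 genes over 6 points.

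Genes induced by the same signals were read beside the chemokines. Of 16 tested genes induced by NF-kB, 9 had an unadjusted p below 0.05 with a lower mean in lipophagy livers and 1 with a higher mean, where the shares of all tested genes were 7.97% and 11.5%. The median log2 change was -0.31, against 0.020 over all tested genes. The lowest was Ccl2, a chemokine that recruits monocytes, which was at 8.39, 5.94 and 4.99 FPKM in control and 4.07, 2.76 and 3.25 FPKM in lipophagy livers (log2 change -0.76, adjusted p = 0.134, limma). The highest was Zfp36, which destabilizes cytokine messages, at 34.6 and 45.6 FPKM on average (log2 change 0.39, adjusted p = 0.204, limma). Of 17 tested genes induced by interferon-gamma, 11 had an unadjusted p below 0.05 and all 17 a lower mean in lipophagy livers, with a median of -0.29. Over all tested genes, 7.97% had such a p with a lower mean, and 5234 of 11493 had a log2 change below 0. They ran from Irgm2, an immunity-related GTPase (log2 change -0.55, adjusted p = 0.141, limma), to Iigp1 (-0.092, adjusted p = 0.655). Cxcl10 lay at the low end of this range and Cxcl9 outside it. None of these genes had an adjusted p below 0.05.

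Markers of the cells that make or receive these chemokines are given with the shares of all tested genes in view, 7.97% with an unadjusted p below 0.05 and a lower mean and 11.5% with a higher mean. The 12 stellate cell and fibroblast markers summed to 108 to 112 FPKM in control and 82.4 to 92.9 FPKM in lipophagy livers, and 7 had an unadjusted p below 0.05 with a lower mean, namely Pdgfrb, Cygb, Col1a1, Col1a2, Col3a1, Acta2 and Dpt, with log2 changes from -0.82 (Dpt) to -0.32 (Pdgfrb). Lrat, which stores retinoid in quiescent stellate cells, had a log2 change of 0.25 and Ecm1 one of 0.0047. The 16 macrophage markers summed to 586 to 669 FPKM and 547 to 590 FPKM. Of the 15 tested, 11 had a negative log2 change and 4 a positive one, where 5234 of 11493 tested genes were negative. Unadjusted p was below 0.05 with a lower mean for 4 (Cd68, Csf1r, Itgam and Ccr2). Vsig4, a marker of resident Kupffer cells, had such a p with a higher mean. The 10 endothelial markers summed to 36.0 to 44.9 FPKM and 39.5 to 60.8 FPKM, with 7 of 9 tested genes higher (6259 of 11493 over all tested genes) and none with an unadjusted p below 0.05. The 6 bile duct markers summed to 137 to 247 FPKM and 92.0 to 196 FPKM, nearly all of it Spp1, and the 5 tested had a median log2 change of -0.53, none with an unadjusted p below 0.05. Of 11 hepatocyte markers, 5 had an unadjusted p below 0.05 with a higher mean (Alb, Serpina1c, Fgb, Tat and Cyp3a11), and the median log2 change was 0.28. No marker in these cell type lists was at 0 in every liver. The part of these cells in the chemokine values was not tested.

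**Figure D4:**
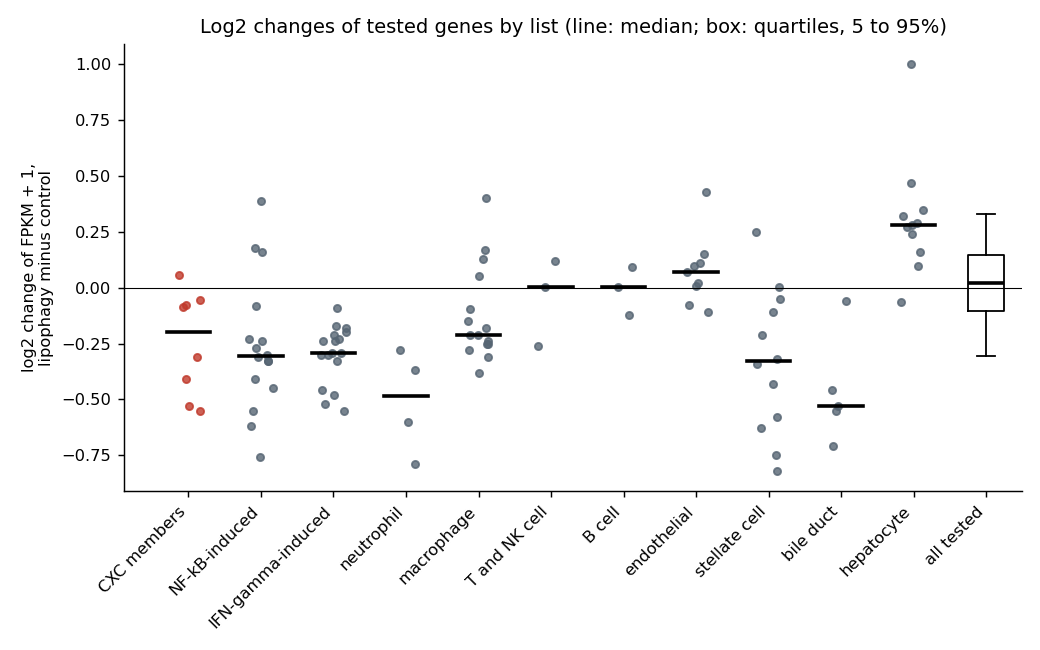
Log2 change of FPKM + 1 (vertical axis, lipophagy minus control) of the tested genes in each list, 1 point a gene, with the median as a line. The members have a median of -0.20, the interferon-gamma-induced genes are all below 0, the hepatocyte markers have a median of 0.28, and the box at the right gives all tested genes.

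**Figure D5:**
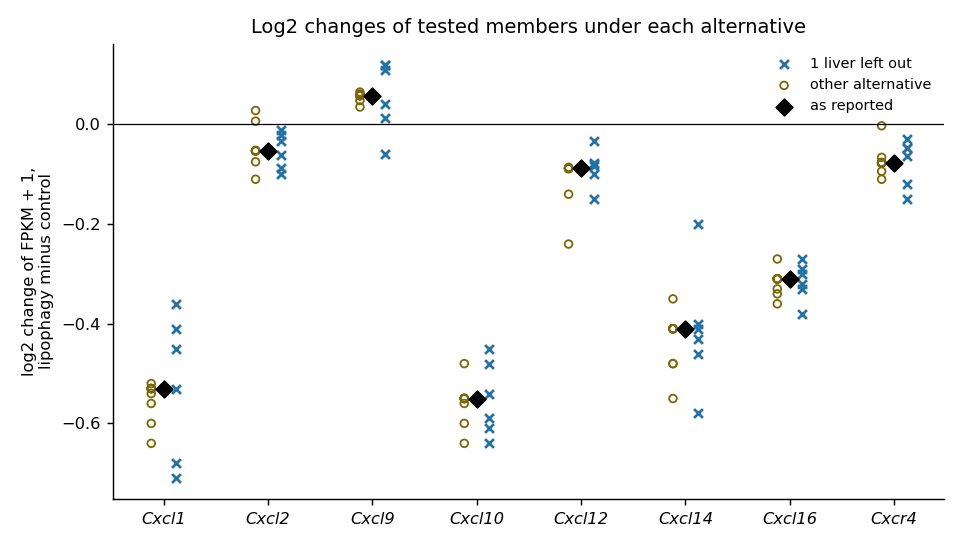
Log2 change of FPKM + 1 (vertical axis, lipophagy minus control) of the 8 tested members as reported (diamonds), with 1 liver left out (crosses) and under the other alternatives of pseudocount, filter, scaling and model (circles). Cxcl10 stays between -0.64 and -0.45 and Cxcl16 between -0.38 and -0.27, Cxcl1 spans -0.71 to -0.36, Cxcl14 spans -0.58 to -0.20, and only Cxcl2 and Cxcl9 cross 0.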

How the data were processed

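RNA from 6 livers was sequenced as paired-end reads of 100 bp from stranded poly(A) libraries. The labels and the study's methods name different sequencers. The submitters' processing notes list TopHat2 2.0.13, Bowtie2 2.2.3, SAMtools 0.1.19, Cufflinks 2.2.1 and mm10, and the annotation and strand setting are not given in the sources used here. The authors deposited FPKM values per gene and liver, scaled to transcript length and mapped fragments. No count model was used.

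From these, log2(FPKM + 1) was tested with limma 3.58.1 in R 4.3.3 (intensity trend, no covariate, two-sided) over the 11493 genes that averaged 0.5 FPKM or more. P-values were adjusted by the Benjamini-Hochberg method and read at 0.05. Changes of low genes are understated on this scale. The fit was first tested on simulated data. Single values were compared with exact permutation tests, whose smallest p is 0.1. Depth and fragments of low genes were estimated from the steps between low FPKM values and GENCODE lengths, taking 150 bases off each length. Whole-number solutions near the count given by the annotated length were tried. The one closest to whole fragments was taken if every liver lay within 0.12 of a fragment. Limits and intervals on fragments cover counting error only. Positions and promoters are from RefSeq GRCm38.p6.

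The members and gene lists were chosen with earlier results of these data known. Genes named are the members, all other CXC ligands, receptors and processing enzymes in the table, the highest and lowest gene of the NF-kB and interferon-gamma lists, cell markers with an unadjusted p below 0.05, and the gene most correlated with each member. Art3, Zmynd15 and Gm2673 are named because their exons overlap a CXC gene. Other marker genes named (granule genes, S100a8, Spp1, Lrat, Ecm1 and Ifng) were chosen after their values were seen. The limma p sets a group difference against the spread between these livers, moderated over all tested genes. The exact p ranks it among the possible splits of the livers. Alternatives were pseudocounts, filters, scalings, a model without the trend, liver weights, a replicate block and leaving out each liver.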

Additional observations from a re-analysis of the deposited data

How the results depend on the processing

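No tested member reached an adjusted p below 0.05 in limma under any of the 16 alternatives (15 for Cxcl2), in which the adjusted p ranged from 0.0841 to 0.335 for Cxcl10, 0.112 to 0.354 for Cxcl16, 0.0780 to 0.457 for Cxcl1 and 0.154 to 0.438 for Cxcl14. Cxcl10 and Cxcl16 had an unadjusted p below 0.05 in all 16, Cxcl1 in 12 and Cxcl14 in 9. Leaving out 1 liver at a time, unadjusted p was below 0.05 for 2 to 4 members and livers did not overlap for 3 to 5, all lower, where 5.2% to 8.2% and 14.3% to 18.6% of all tested genes did so with a lower mean. The median of the members was -0.31 with a filter of at least 1 FPKM, which removed Cxcl2, and -0.13 with no filter, which added Cxcl13. With no filter the unadjusted p of Cxcl14 was 0.0669, and Cxcl13, at 0 in every lipophagy liver, is not read as a call. Under quantile normalization Cxcl12 (log2 change -0.24) took the place of Cxcl14 (-0.35) among both counts of members. Cxcl1 was lower than Cxcl10 with quantile normalization, with liver quality weights and without control liver 1 or lipophagy liver 3. Cxcl14 was lower than Cxcl10 without control liver 1, and lower than Cxcl1 without control liver 2 or lipophagy liver 1. The cause was not tested. Signs turned for small values only. Cxcl2 was at 0.028 with quantile normalization and 0.0066 with liver quality weights, and Cxcl9 ranged from -0.06 to 0.12 over left-out livers, turning without lipophagy liver 3. The Cxcl12 to Cxcr4 ratio differed by 0.025 and 0.0054 with pseudocounts of 0.1 and 0.5, and by -0.057 to 0.077 over left-out livers, and the Cxcl10 to Cxcl14 ratio by -0.33 to 0.10. Of 223 recomputed values, 209 were labelled unchanged. For single members this meant the same direction and side of the threshold, which none of them crossed in any setting. Counts had to stay within a set factor of the reported count. Medians and ratios had to keep their sign and move by less than the SE of the members or the SD within groups. With the group means taken off, livers with the same number had r = 0.25, 0.23 and -0.06, and other pairs had r from -0.39 to 0.25. Over so few pairs these values cannot settle whether the numbers pair livers. With the replicate block, 4 members had an unadjusted p below 0.05, where 7.93% of all tested genes had one with a lower mean, and the adjusted p of Cxcl1 was 0.0780. With 3 livers a group, the differences of Cxcl2, Cxcl9, Cxcl12 and Cxcr4 had intervals that included 0. Whether the groups overlapped depended on single livers for Cxcl2, Cxcl12 and Cxcr4, and for Cxcl12 also on the scaling. Cxcl13 rested on 8 fragments in all.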
